A study of Mus musculus with 12 samples.

Results

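The mRNAs of glutathione and antioxidant enzymes were followed in neural cells grown from mouse embryonic stem cells (mESC). The enzymes were chosen by name: every gene on the array whose symbol marks it as a glutathione transferase, a glutathione peroxidase, a peroxiredoxin, a thioredoxin or thioredoxin reductase, an enzyme of glutathione synthesis or recycling, a heme oxygenase, the quinone reductase Nqo1, a superoxide dismutase or catalase. This gave 54 of the 31741 genes measured, and 52 of the 54 were tested. Gpx5 and Gstt4 were not, because their probes were well above background on 0 of the 12 arrays.

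All groups came from 1 line, Actin-eGFP C57BL/6 mESC, which had been grown on mouse fibroblasts treated with mitomycin C and were depleted of those feeders before embryoid bodies were formed. At step 5 the cells had spent 7 days in neuronal differentiation medium with the supplement B27 and 200 µM ascorbic acid and without bFGF, and at step 4 neural precursors had spent 5 days with the supplement N2 and 10 ng/ml bFGF. At each step, cells enriched on magnetic beads for PSA-NCAM, the polysialylated neural cell adhesion molecule of immature neural cells, were set against unsorted control cells, after dead cells had been removed from the cells to be enriched. The 4 groups were step 5 enriched, step 5 control, step 4 enriched and step 4 control cells, with 3 biological replicates each per the labels. Whether the step 5 sort came at the start or at the end of the 7 days is not given in the labels. Supplement, bFGF, ascorbic acid and the days in culture changed with the step, so they cannot be told apart from it. The removal of dead cells and the handling on beads went with the enrichment and cannot be told apart from it either.

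Glutathione is a tripeptide made by glutamate-cysteine ligase (Gclc and its modifier Gclm) and glutathione synthetase (Gss), and oxidised glutathione is reduced again by glutathione reductase (Gsr). Glutathione peroxidases spend it to reduce hydrogen peroxide and lipid peroxides, glutathione transferases attach it to electrophiles, and peroxiredoxins reduce peroxides with electrons from thioredoxin. Many of these genes are known targets of the transcription factor Nrf2 (Nfe2l2), and in brain several of them are known to be stronger in glia than in neurons.

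Every array carried a sample in Cy5 and a common mESC RNA in Cy3, so a value is a log2 ratio of the sample to mESC, and 1 on this scale is a 2-fold ratio. Dyes were not swapped, so a dye effect of a probe stays in its ratio to mESC, and differences between groups are free of it. Cy5 was well above background for 25595 to 29070 of 39429 probes per array, and 3 arrays a group limit the precision. The control arrays of slide 2 stood apart: across genes they correlated with the other arrays of their group at a mean of 0.71 at step 5 and 0.76 at step 4, against 0.92 and 0.85 between those other arrays, while enriched arrays correlated at 0.90 to 0.96 within their groups.

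Markers of the cell types in the cultures moved with the sort. Of the markers of pluripotent cells, 8 of 8 were lower in enriched cells at both steps, with a median log2 difference of -3.23 at step 5 and -3.60 at step 4. Their median ratio to mESC lay between -4.50 and -2.93 on the step 5 enriched arrays and between -0.88 and -0.69 on the step 5 controls. At step 4 it lay between -4.61 and -3.56 on the enriched arrays and between -0.88 and -0.61 on the controls. Also higher in enriched cells were 7 of 8 neuronal, 6 of 8 astroglial and 5 of 8 oligodendrocyte lineage markers at step 5, and 1, 2 and 0 of 8 at step 4. Of all genes 20.3% were higher and 20.2% lower at step 5, and 15% higher and 16.2% lower at step 4. The median log2 differences of these 3 lists were 2.52, 2.37 and 1.90 at step 5. At step 4 they were 1.73, 1.25 and 0.46, and the median was positive on every slide at both steps. Markers of endoderm were highest on slide 2 in every group, with a median ratio of 1.86 in step 5 enriched cells and 2.96 in step 5 controls, and of 1.59 in step 4 enriched cells and 2.86 in step 4 controls. On the other slides that median lay at -0.04 and 0.08 in step 5 enriched cells, against 0.53 and 1.01 in step 5 controls, and at -0.01 and 0.11 in step 4 enriched cells, against 0.31 and 1.24 in step 4 controls. At step 5 the control arrays of slides 1, 2 and 3 were the highest of their group for 9, 19 and 24 of the 52 enzymes. At step 4 these counts were 13, 21 and 18. The part of these cell types in the results that follow was not tested, and in such mixed cultures fewer cells of a type and less RNA per cell cannot be told apart.

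Against mESC the 52 enzymes spread widely around a ratio of 1, with array medians of 0.08 to 0.18 in step 5 enriched cells and 0.07 to 0.13 in step 5 controls. At step 4 the medians were -0.45 to -0.21 in enriched cells and 0.01 to 0.09 in controls. On every one of the 12 arrays 8 of them were above mESC (Mgst1, Gpx8, Sod3, Gpx1, Prdx3, Cat, Gstz1 and Gsta1) and 10 below it (Gpx2, Gpx4, Gpx6, Gsta4, Gstm2, Gstm3, Gstm6, Gstp2, Prdx1 and Txnrd1). The mESC signal was well above background on 0 of 12 arrays for Gsta1 and on 7 of 12 for Sod3, so the size of their ratios is uncertain. Step 4 enriched cells had the lowest group mean for 30 of the 52 enzymes, and step 5 enriched cells the highest for 21.

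**Figure D1:**
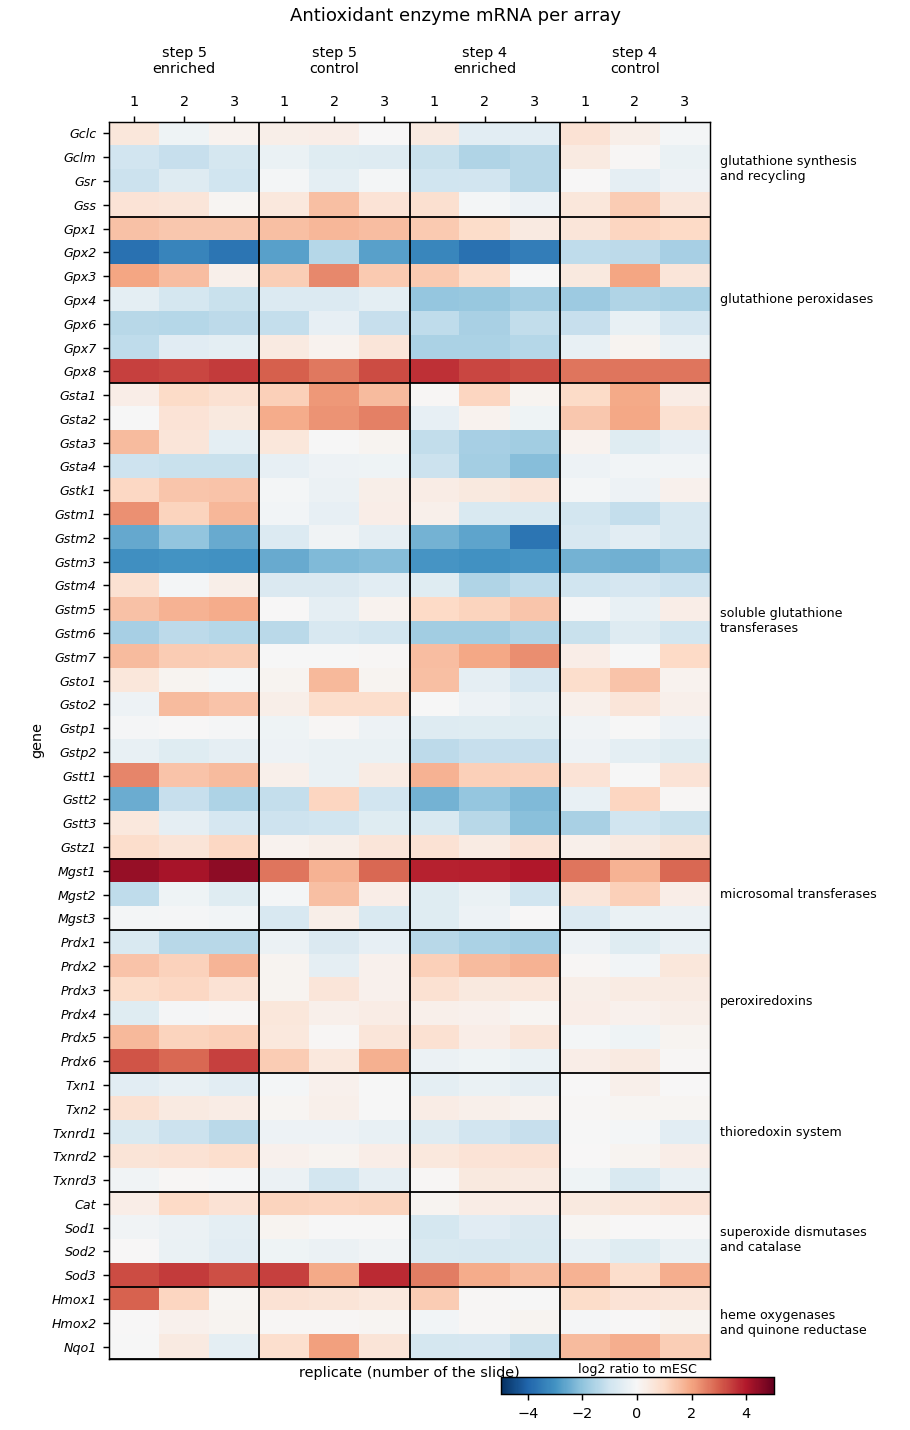
Log2 ratio to mESC (colour) of the 52 tested enzymes (rows, by role) on the 12 arrays (columns, by group and replicate). Mgst1, Gpx8 and Sod3 are above mESC on every array, Gpx2, Gstm3 and Gstm6 are below it on every array, and Prdx6 is highest in step 5 enriched cells.

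With enrichment for PSA-NCAM the enzymes moved in both directions at each step, as all genes did. At step 4 the share that was lower was larger among the enzymes than among all genes. At step 5, 29 of 52 differed between enriched and control cells, 15 higher and 14 lower, and at step 4, 28 of 52 differed, 9 higher and 19 lower. Of the enzymes 28.8% were higher and 26.9% lower at step 5, beside 40.5% of all 22315 genes that passed there, 20.3% higher and 20.2% lower. At step 4, 17.3% of the enzymes were higher and 36.5% lower, beside 31.2% of all genes, 15% higher and 16.2% lower. Centring each array on its median in place of loess, an alternative chosen after seeing the data, raised the median of all genes to 0.134 at step 5 and 0.133 at step 4 and tilted the calls of all genes to 66.1% and 65% higher, against 50.1% and 48.1% with loess. The enzymes then split into 15 higher and 11 lower at step 5 and 10 higher and 18 lower at step 4. With loess the median difference over the 52 was -0.11 at step 5, against -0.01 over all genes, and -0.40 at step 4, against 0.01 over all genes. Of the enzymes that passed at both steps, 8 were higher and 13 lower in enriched cells at both, and 0 passed in opposite directions. Over all 22315 genes these counts were 2580, 3057 and 18. The 21 enzymes were 40.4% of those tested, against 25.3% over all genes. They were 72.4% of the step 5 calls and 75% of the step 4 calls, against 62.4% and 81.1% over all genes. Of the enzymes that passed at 1 step only, 4 had a difference of opposite sign at the other: Prdx6 (1.98 at step 5 and -0.56 at step 4), Gstm4 (0.98 and -0.17), Gsta3 (0.34 and -1.28) and Gstp1 (0.10 and -0.46).

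The 8 that rose at both steps were Gpx8, Gstk1, Gstm5, Gstm7, Mgst1, Prdx2, Prdx5 and Txnrd2, and the 13 that fell were Gpx2, Gpx7, Gsr, Gsta2, Gsta4, Gstm2, Gstm3, Mgst2, Nqo1, Prdx1, Sod1, Txn1 and Txnrd1. For Gstm3 a second probe, nearly as bright, went the other way at step 5, so its place among the falls rests on the choice of probe. Enriched and control arrays did not overlap for 36 of the 52 at step 5, 16 above and 20 below, and for 37 at step 4, 13 above and 24 below. Of all genes, 25.6% lay above and 25.6% below at step 5, and 22.1% and 24.8% at step 4.

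**Figure D2:**
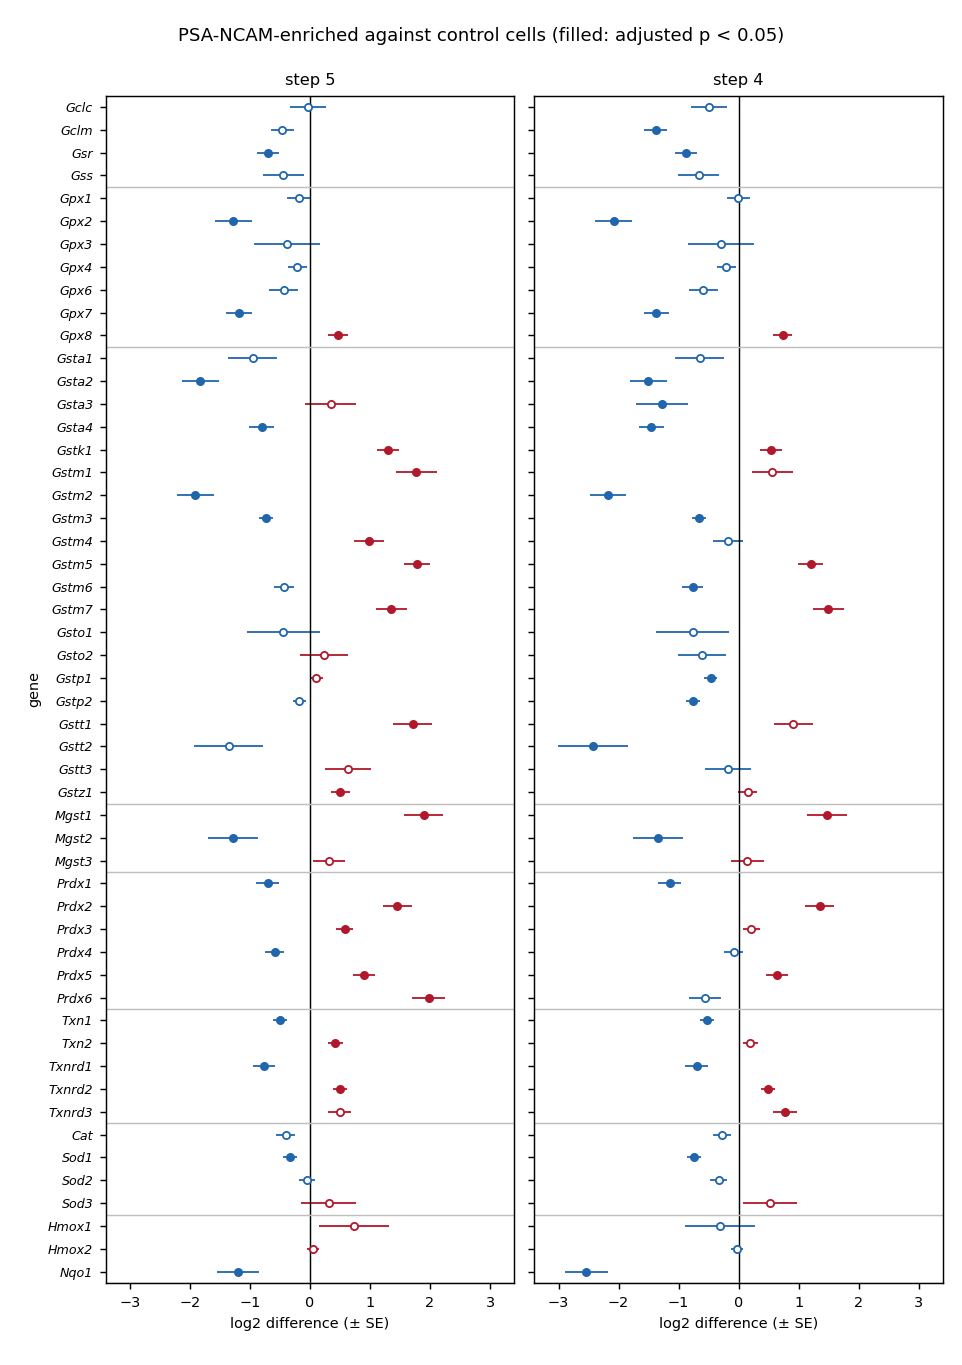
Log2 difference between PSA-NCAM-enriched and control cells (x axis, point ± SE of the moderated model, 3 arrays a group) for each of the 52 enzymes (rows) at step 5 (left) and step 4 (right), filled where the adjusted p is under 0.05. The filled points split into 15 to the right and 14 to the left at step 5, and 9 to the right and 19 to the left at step 4.

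Between the steps, the enzymes that changed in enriched cells all rose. In step 5 enriched cells 9 of 52 were higher than in step 4 enriched cells and 0 were lower, where 6.43% of all genes passed, 3.96% higher and 2.47% lower. The 9 were Prdx6, Gsta3, Gstm1, Gstm4, Gpx4, Gstk1, Gstp2, Prdx5 and Gstp1, of which 6 are transferases, and the median over the 52 was 0.40, against -0.003 over all genes. Leaving out all of slide 2 kept 1 of the 9, Prdx6, and leaving out step 4 enriched replicate 2 alone kept 5. Of all genes 1.39% and 1.99% passed in these 2 fits. Between step 5 and step 4 control cells limma found 0 of 52 changed, and 0% of all genes. There 11 of the 52 had an unadjusted p under 0.05, 9 higher and 2 lower in step 5 controls, against 8.6% of all genes. Without step 5 control replicate 2, 4 enzymes passed between step 5 and step 4 controls: Prdx6 at 1.23 (adjusted p = 0.01787), Gpx4 at 1.06 (0.02258), Sod3 at 2.09 (0.01597) and Gpx2 at -1.31 (0.0101). Among all genes 364 were higher and 44 lower in that fit.

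Whether enrichment acted differently at the 2 steps was tested as a difference of differences, and 0 of 52 enzymes and 0 of all genes passed in limma. At an unadjusted p under 0.05 there were 11 of the 52, 10 of them positive, and 7.06% of all genes. The largest was Prdx6, at 2.54 with an SE of 0.38 and an adjusted p of 0.08477.

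**Figure D3:**
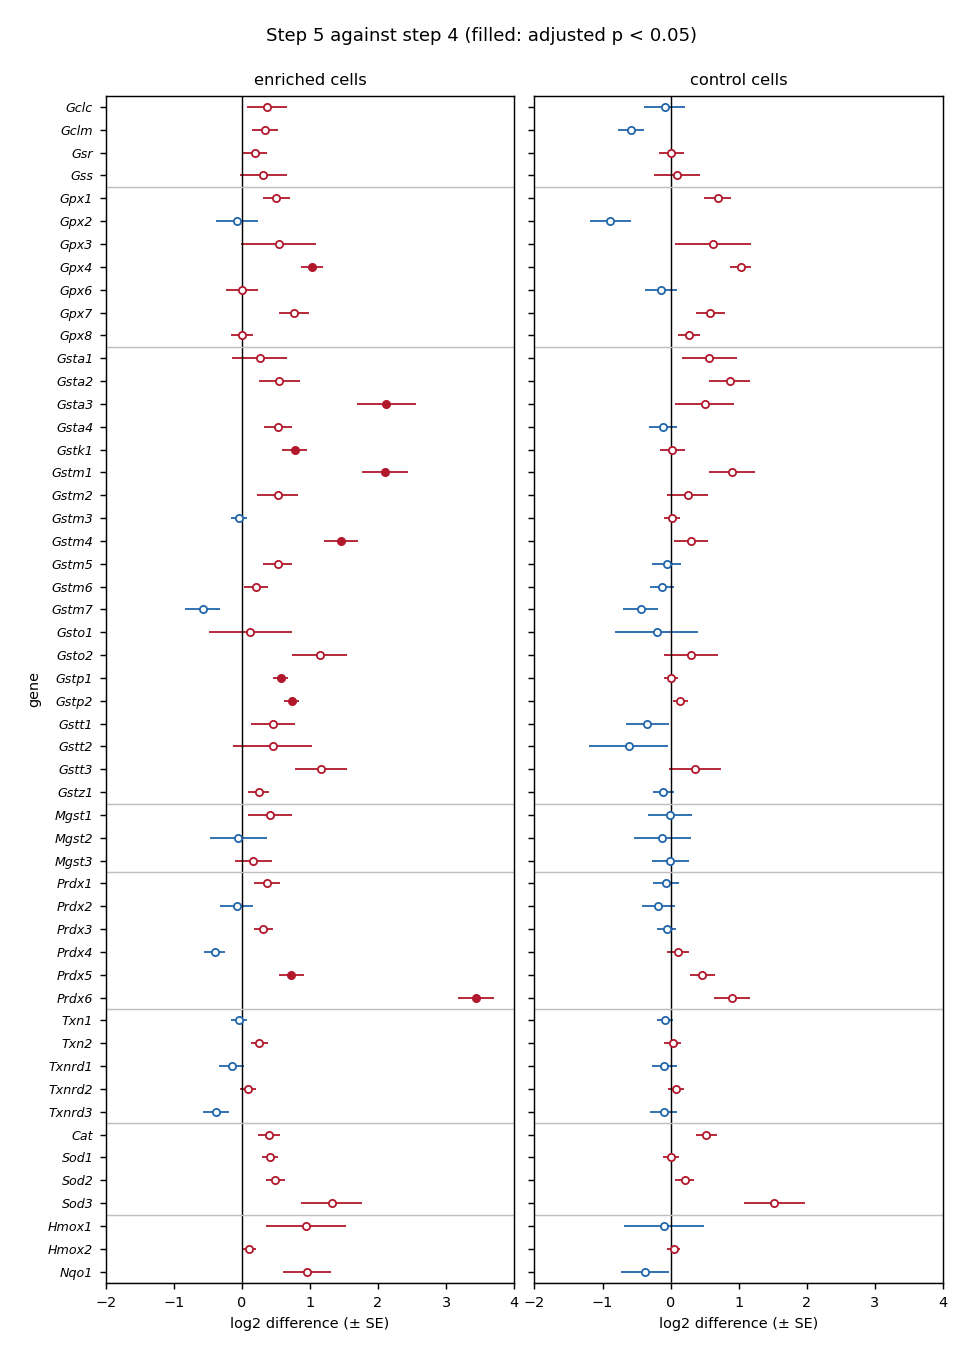
Log2 difference between step 5 and step 4 (x axis, point ± SE of the moderated model, 3 arrays a group) for each of the 52 enzymes (rows) in enriched cells (left) and control cells (right), filled where the adjusted p is under 0.05. In enriched cells 9 points are filled, all of them to the right, with Prdx6 farthest out at 3.44, and in control cells 0 are filled.

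Prdx6, the peroxiredoxin that reduces phospholipid peroxides with glutathione and also acts as a phospholipase, had the largest change of any enzyme here. It was at 3.16, 2.88 and 3.43 in step 5 enriched cells, against 1.25, 0.52 and 1.77 in step 5 controls. At step 4, Prdx6 was at -0.29, -0.23 and -0.33 in enriched cells, against 0.34, 0.45 and 0.04 in controls. The step 5 enriched arrays were thus above every other array, and the step 4 enriched arrays below every other one. Prdx6 rose 10.9-fold in step 5 enriched against step 4 enriched cells (log2 difference 3.44, SE 0.27, adjusted p = 0.0003654) and 3.94-fold in enriched against control cells at step 5 (log2 difference 1.98, SE 0.27, adjusted p = 0.0004281). At step 4 the difference was -0.56 in enriched against control cells (adjusted p = 0.1366, and 0.03652 without step 5 control replicate 2). Between step 5 and step 4 controls it was 0.90 (adjusted p = 0.3256), and it passed without step 5 control replicate 2 (0.01787). The test of the difference between the 2 enrichment effects passed when step 5 control replicate 2 (2.21, adjusted p = 0.02971) or step 5 control replicate 3 (2.84, adjusted p = 0.02576) was left out.

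The array holds 4 probes for Prdx6, and the following one lies in its coding sequence at chr1:163173715-163173774 of mm9, minus strand, and is shown because it repeated the rise seen with the brightest probe; it has no capitals.

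Prdx6 probe: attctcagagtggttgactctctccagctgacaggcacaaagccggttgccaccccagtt

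This probe gave a difference of 3.30 between step 5 and step 4 enriched cells and of 1.47 between enriched and control cells at step 5, against 3.44 and 1.98 for the brightest probe, which stands for the gene elsewhere. All 4 probes rose in both comparisons, the dimmest by 0.85 and 0.60. At step 4 they differed by -1.13 to -0.13 between enriched and control cells, and 2 of the 4 passed, at -1.13 (adjusted p = 0.006325) and -1.09 (adjusted p = 0.005819). A copy of the gene in the mouse genome, Prdx6-ps1, has its own probe, and how far it hybridises to the Prdx6 probes was not tested.

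Markers of glial cells were higher in step 5 enriched cells, where Prdx6 rose. At step 4 the astroglial median was also higher on the enriched arrays, while the Prdx6 difference was -0.56 (adjusted p = 0.1366). The median ratio to mESC of the 8 astroglial markers lay at 4.68 to 5.55 on the step 5 enriched arrays and 0.61 to 3.75 on the step 5 controls. At step 4 it lay at 1.34 to 2.57 on the enriched arrays and 0.15 to 1.11 on the controls. Of these markers 4 of 8 rose between the steps in enriched cells, beside 3.96% of all genes. The oligodendrocyte lineage markers lay at 2.18 to 2.54 on the step 5 enriched arrays and 0.004 to 1.19 on the step 5 controls. At step 4 they lay at -0.16 to 0.46 on the enriched arrays and -0.42 to 0.11 on the controls, with 4 of 8 higher in step 5 enriched than in step 4 enriched cells. Neuronal markers were also higher in enriched than in control cells at step 5 (median difference 2.52, 7 of 8 passed). Between the steps in enriched cells their median difference was 0.42, and 0 of 8 passed. For mesenchymal markers the median difference was 0.39 with enrichment at step 5 (0 of 8 passed) and 0.99 between the steps in enriched cells (1 of 8). The part of any of these cell types in the rise of Prdx6 was not tested.

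**Figure D4:**
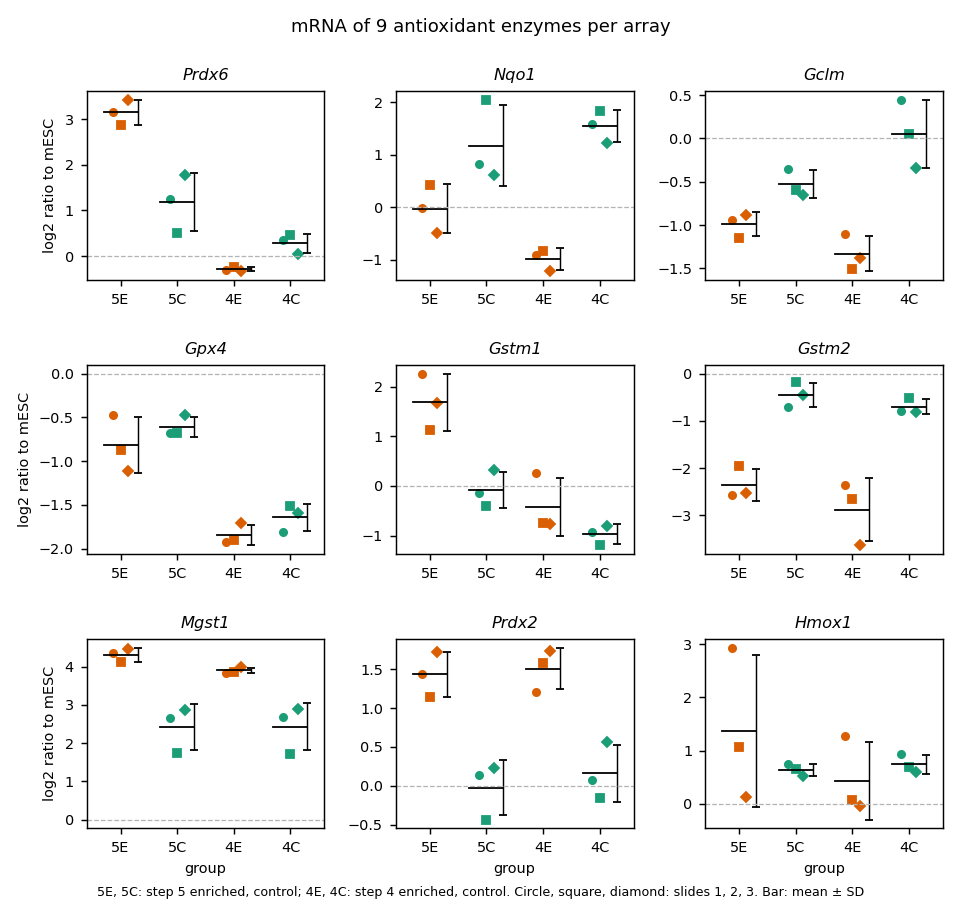
Log2 ratio to mESC (y axis) of 9 enzymes on each array, with the mean and SD of 3 arrays per group (5E and 5C, step 5 enriched and control; 4E and 4C, step 4 enriched and control). Prdx6 stands at 2.88 to 3.43 in step 5 enriched cells, against 0.52 to 1.77 in step 5 controls, and Mgst1 and Prdx2 are higher, and Gstm2, Nqo1 and Gclm lower, on every enriched array than on every control array of the same step.

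Among the other peroxiredoxins, which take their electrons from thioredoxin, Prdx2 and Prdx5 rose with enrichment at both steps and Prdx1 fell. Prdx2, a cytosolic enzyme abundant in neurons, was at 1.44, 1.15 and 1.72 in step 5 enriched cells, against 0.14, -0.43 and 0.23 in step 5 controls. At step 4, Prdx2 was at 1.21, 1.58 and 1.73 in enriched cells, against 0.07, -0.15 and 0.56 in controls. Enriched arrays lay above control arrays at both steps, 2.74-fold at step 5 (log2 difference 1.46, SE 0.24, adjusted p = 0.001228) and 2.55-fold at step 4 (log2 difference 1.35, SE 0.24, adjusted p = 0.002943). Prdx5, found in mitochondria, peroxisomes and cytosol, was at 1.61, 1.11 and 1.19 in step 5 enriched cells, against 0.51, 0.08 and 0.62 in step 5 controls. At step 4, Prdx5 was at 0.78, 0.34 and 0.61 in enriched cells, against -0.10, -0.21 and 0.12 in controls. The groups did not overlap between enriched and control cells at either step, nor between step 5 and step 4 enriched cells, with differences of 0.90 with adjusted p = 0.003941, 0.64 with adjusted p = 0.02704 and 0.73 with adjusted p = 0.04711. The last of these calls was lost without any 1 of 11 of the 12 arrays (all but step 5 control replicate 2), with an adjusted p of up to 0.1702 without step 4 enriched replicate 2, and the step 4 call without any 1 of step 4 enriched replicates 1 or 3 or step 4 control replicates 1 or 2 (up to 0.09352).

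Prdx1, the most general cytosolic peroxiredoxin and a known Nrf2 target, was at -0.76, -1.39 and -1.40 in step 5 enriched cells, against -0.28, -0.73 and -0.41 in step 5 controls. At step 4, Prdx1 was at -1.40, -1.57 and -1.71 in enriched cells, against -0.25, -0.60 and -0.37 in controls. Enriched arrays lay below control arrays at both steps, with a difference of -0.71 at step 5 (SE 0.19, adjusted p = 0.01466) and -1.15 at step 4 (SE 0.19, adjusted p = 0.00212). The step 5 call was lost without step 5 enriched replicate 2 or 3 or step 5 control replicate 1 (adjusted p of 0.05151 to 0.05921). The mitochondrial Prdx3 rose with enrichment at step 5 (0.58 with adjusted p = 0.008463) and Prdx4 of the endoplasmic reticulum fell (-0.59 with adjusted p = 0.01378). At step 4 their differences were 0.21 with adjusted p = 0.2775 and -0.08 with adjusted p = 0.7329.

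The enzymes that make and recycle glutathione were not higher in enriched cells in any test. Gclm, the modifier subunit that sets the affinity of the ligase, was at -0.95, -1.15 and -0.88 in step 5 enriched cells, against -0.35, -0.59 and -0.65 in step 5 controls. At step 4, Gclm was at -1.10, -1.50 and -1.38 in enriched cells, against 0.45, 0.06 and -0.35 in controls. Every enriched array was below every control array of its step, and the 2.61-fold fall at step 4 passed (log2 difference -1.38, SE 0.19, adjusted p = 0.0008506). At step 5 the difference was -0.46 (adjusted p = 0.07879), and it passed with the slide as a block (adjusted p = 0.03239), without step 4 control replicate 1 (0.0408) and without step 4 control replicate 3 (0.04153). Gsr was at -1.09, -0.65 and -1.01 in step 5 enriched cells, against -0.09, -0.47 and -0.10 in step 5 controls. At step 4, Gsr was at -0.98, -0.94 and -1.39 in enriched cells, against 0.00, -0.44 and -0.24 in controls. It fell with enrichment at both steps without overlap, with a difference of -0.70 at step 5 (adjusted p = 0.01177) and -0.88 at step 4 (adjusted p = 0.005869).

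Gclc, the catalytic subunit of the ligase, was at 0.55, -0.20 and 0.17 in step 5 enriched cells, against 0.27, 0.32 and 0.02 in step 5 controls. At step 4, Gclc was at 0.46, -0.52 and -0.52 in enriched cells, against 0.71, 0.28 and -0.10 in controls. The Gclc arrays of enriched and control cells overlapped at both steps. Gss was at 0.69, 0.60 and 0.11 in step 5 enriched cells, against 0.54, 1.49 and 0.69 in step 5 controls. At step 4, Gss was at 0.81, -0.08 and -0.27 in enriched cells, against 0.55, 1.28 and 0.62 in controls. For both genes the groups overlapped in every comparison and none passed, except that without step 4 enriched replicate 1 the step 4 differences between enriched and control cells did (adjusted p = 0.03844 for Gclc and 0.04043 for Gss).

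Of the glutathione peroxidases, which include the selenoproteins Gpx1 to Gpx4, 7 of 8 were tested. Gpx1, the main cytosolic one, was at 1.47, 1.34 and 1.36 in step 5 enriched cells, against 1.52, 1.67 and 1.55 in step 5 controls. At step 4, Gpx1 was at 1.30, 0.92 and 0.44 in enriched cells, against 0.61, 1.07 and 0.98 in controls. The step 5 arrays of each kind were above the step 4 arrays, by 0.51 with adjusted p = 0.1615 in enriched and 0.69 with adjusted p = 0.2888 in control cells, and neither passed, the first except without step 4 enriched replicate 1 (adjusted p = 0.04913). Gpx4, which reduces phospholipid hydroperoxides in membranes and guards cells against ferroptosis, was at -0.48, -0.87 and -1.11 in step 5 enriched cells, against -0.68, -0.68 and -0.47 in step 5 controls. At step 4, Gpx4 was at -1.92, -1.91 and -1.71 in enriched cells, against -1.81, -1.52 and -1.59 in controls. It rose 2.04-fold between the steps in enriched cells (log2 difference 1.03, SE 0.16, adjusted p = 0.006826). Control cells differed by 1.03 between the steps with no overlap (adjusted p = 0.1471). Enriched and control cells overlapped at both steps. The Gpx4 probe, shown because the difference between the steps had the same size in both kinds of cell, spans a junction of exons within chr10:79518691-79518842 of mm9, plus strand, and has no capitals.

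Gpx4 probe: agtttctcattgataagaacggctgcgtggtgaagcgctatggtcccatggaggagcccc

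Gpx2 and Gpx7 carried the falls in this family. Gpx2, an enzyme known from epithelia of the gut, was at -3.74, -3.28 and -3.67 in step 5 enriched cells, against -2.70, -1.44 and -2.71 in step 5 controls. At step 4, Gpx2 was at -3.26, -3.73 and -3.47 in enriched cells, against -1.27, -1.29 and -1.65 in controls. All 12 arrays were below mESC and the enriched arrays lowest, 2.42-fold below controls at step 5 (log2 difference -1.28, SE 0.31, adjusted p = 0.00812) and 4.24-fold at step 4 (log2 difference -2.08, SE 0.31, adjusted p = 0.00113). Gpx7, which acts in the endoplasmic reticulum, was at -1.26, -0.57 and -0.50 in step 5 enriched cells, against 0.45, 0.16 and 0.62 in step 5 controls. At step 4, Gpx7 was at -1.60, -1.60 and -1.44 in enriched cells, against -0.38, 0.14 and -0.29 in controls. Enriched arrays lay below controls at both steps (-1.19 with adjusted p = 0.001948 at step 5 and -1.37 with adjusted p = 0.001578 at step 4), and with the slide as a block Gpx7 also rose between the steps in enriched cells, by 0.77 (adjusted p = 0.04381, against 0.06322 without it), as it did without step 5 enriched replicate 1 (0.01932).

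Gpx8, the other peroxidase of the endoplasmic reticulum, ran the opposite way, 0.47 with adjusted p = 0.04096 at step 5 and 0.73 with adjusted p = 0.008181 at step 4 in enriched against control cells, from levels of 3.42 ± 0.09 in step 5 enriched cells, 2.95 ± 0.32 in step 5 controls, 3.41 ± 0.23 in step 4 enriched cells and 2.68 ± 0.01 in step 4 controls (SD, n = 3 each). The step 5 call was lost without any 1 of step 5 enriched replicates 1, 2 or 3, step 5 control replicates 1 or 2, step 4 enriched replicate 2 or step 4 control replicates 1, 2 or 3, with an adjusted p of up to 0.1366. Gpx3, the plasma enzyme, and Gpx6 passed in no comparison, with differences of -0.38 and -0.44 at step 5 and -0.29 and -0.59 at step 4 in enriched against control cells, apart from Gpx6 at step 4 without step 5 control replicate 2 (adjusted p = 0.03234) or step 4 control replicate 1 (0.04911).

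The soluble glutathione transferases had 20 tested members of 21 and moved in both directions. In enriched against control cells 7 rose and 4 fell at step 5, or 35% and 20%, beside 20.3% and 20.2% of all genes. At step 4, 3 rose and 9 fell, or 15% and 45%, beside 15% and 16.2% of all genes. In step 5 enriched against step 4 enriched cells 6 rose and 0 fell, or 30% and 0%, beside 3.96% and 2.47% of all genes. Because these genes lie in clusters of close relatives, their probes may not tell members apart.

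The mu class showed the split within 1 gene cluster. Gstm5, the mu transferase known from brain and testis, was at 1.47, 1.75 and 1.86 in step 5 enriched cells, against 0.03, -0.46 and 0.16 in step 5 controls. At step 4, Gstm5 was at 0.98, 1.13 and 1.38 in enriched cells, against -0.04, -0.38 and 0.32 in controls. It rose 3.44-fold with enrichment at step 5 (log2 difference 1.78, SE 0.21, adjusted p = 0.0002224) and 2.3-fold at step 4 (log2 difference 1.20, SE 0.21, adjusted p = 0.002746), with no overlap. Gstm7 was at 1.59, 1.27 and 1.22 in step 5 enriched cells, against 0.00, -0.03 and 0.04 in step 5 controls. At step 4, Gstm7 was at 1.53, 1.95 and 2.33 in enriched cells, against 0.33, -0.01 and 1.00 in controls. Its enriched arrays too were all above the controls, 2.56-fold at step 5 (log2 difference 1.36, SE 0.25, adjusted p = 0.00223) and 2.82-fold at step 4 (log2 difference 1.50, SE 0.25, adjusted p = 0.002244). Gstm2 went the other way, at -2.57, -1.96 and -2.54 in step 5 enriched cells, against -0.70, -0.18 and -0.46 in step 5 controls. At step 4, Gstm2 was at -2.35, -2.65 and -3.64 in enriched cells, against -0.78, -0.51 and -0.81 in controls. Its enriched arrays were all below the controls, 3.75-fold at step 5 (log2 difference -1.91, SE 0.30, adjusted p = 0.0009405) and 4.53-fold at step 4 (log2 difference -2.18, SE 0.30, adjusted p = 0.0008149).

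Gstm1, the mu transferase of astrocytes and liver, separated the steps as well. It was at 2.27, 1.12 and 1.68 in step 5 enriched cells, against -0.15, -0.41 and 0.32 in step 5 controls. At step 4, Gstm1 was at 0.26, -0.75 and -0.76 in enriched cells, against -0.93, -1.20 and -0.81 in controls. The step 5 enriched arrays were above all others, 3.41-fold above step 5 controls (log2 difference 1.77, SE 0.34, adjusted p = 0.00245) and 4.3-fold above step 4 enriched cells (log2 difference 2.11, SE 0.34, adjusted p = 0.007543). At step 4 the groups did not overlap either, and the difference of 0.56 did not pass (adjusted p = 0.2351). The brightest Gstm1 probe is placed by the files on chromosome 5, outside the mu cluster on chromosome 3, and the second probe, inside it, gave 1.58 at step 5 and 1.99 between the steps.

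Gstm4 was at 0.78, -0.09 and 0.31 in step 5 enriched cells, against -0.71, -0.71 and -0.53 in step 5 controls. At step 4, Gstm4 was at -0.60, -1.51 and -1.27 in enriched cells, against -0.98, -0.82 and -1.05 in controls. The step 5 enriched arrays were above both neighbouring groups (0.98 with adjusted p = 0.01011 against step 5 controls and 1.46 with adjusted p = 0.009214 against step 4 enriched cells). A second Gstm4 probe of nearly the same brightness gave -0.30 (adjusted p = 0.2308) and 0.33 (adjusted p = 0.3415) in the same tests, so the rises rest on 1 of 2 probes. Gstm3 was divided in the same manner: the probe used gave -0.73 with adjusted p = 0.001118 at step 5, and the second, nearly as bright, 0.89 (adjusted p = 0.02361) there and 1.69 (adjusted p = 0.006647) in step 5 enriched against step 4 enriched cells, where the probe used gave -0.04. Gstm6 fell at step 4 (-0.77 with adjusted p = 0.00884), and at step 5 its difference of -0.43 (adjusted p = 0.0709) passed with the slide as a block (adjusted p = 0.01905) and without step 5 control replicate 1 (0.02375).

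How alike the mu probes are can be read from the stretches in which the Gstm7 probe, on chr3:107732073-107733247 of mm9, overlaps a Gstm6 probe, on chr3:107745052-107745111, both minus strand, with the bases that differ in capitals.

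Gstm7: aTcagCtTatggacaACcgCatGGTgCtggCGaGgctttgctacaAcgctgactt
Gstm6: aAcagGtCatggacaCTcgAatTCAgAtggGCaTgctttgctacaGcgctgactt

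Of 55 bases 41 were equal, or 74.5%. The second Gstm3 probe matched Gstm7 at 40 of 59 bases. The differences between enriched and control cells had opposite signs for the Gstm7 and Gstm6 probes shown, 1.36 for Gstm7 and -0.28 for Gstm6 at step 5, and 1.50 for Gstm7 and -0.50 for Gstm6 at step 4. Gstm7 passed at both steps, and Gstm6 passed at step 4 but not at step 5. The Gstm6 probe shown is dimmer than the one that stands for that gene elsewhere.

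The pi class gave a pair of close relatives. Gstp1, a major transferase of many cells, was at -0.06, 0.01 and -0.07 in step 5 enriched cells, against -0.23, 0.06 and -0.26 in step 5 controls. At step 4, Gstp1 was at -0.64, -0.59 and -0.60 in enriched cells, against -0.16, -0.03 and -0.26 in controls. The step 4 enriched arrays were the lowest of all 12. Gstp2 was at -0.38, -0.60 and -0.45 in step 5 enriched cells, against -0.25, -0.32 and -0.33 in step 5 controls. At step 4, Gstp2 was at -1.31, -1.15 and -1.16 in enriched cells, against -0.24, -0.49 and -0.61 in controls. Here too the step 4 enriched arrays were the lowest of all 12. In both genes they fell below step 4 controls (-0.46 with adjusted p = 0.009959 for Gstp1 and -0.76 with adjusted p = 0.001193 for Gstp2), and step 5 enriched cells stood above step 4 enriched ones (0.57 with adjusted p = 0.01422 and 0.73 with adjusted p = 0.006826). Without step 4 enriched replicate 2 the last call of Gstp1 was lost (adjusted p = 0.05544), and Gstp1's second probe fell at step 5 too (-0.49, adjusted p = 0.007597), where the probe used gave 0.10. Where a Gstp1 probe, on chr19:4035908-4036723 of mm9, and a Gstp2 probe, on chr19:4040983-4041042, both minus strand, overlap, 30 of 35 bases are equal, or 85.7%, and capitals mark the 5 that differ.

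Gstp1: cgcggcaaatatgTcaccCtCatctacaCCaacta
Gstp2: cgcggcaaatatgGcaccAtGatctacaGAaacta

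The Gstp2 probe shown is the dimmer of 2 and fell at both steps (-0.56, adjusted p = 0.002077 at step 5 and -1.13, adjusted p = 0.0001116 at step 4), and the Gstp2 values above come from the other. How far the signals of Gstp1 and Gstp2 are separate was not tested.

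In the alpha class every change with enrichment that passed was a fall. Gsta2 was at -0.02, 0.70 and 0.50 in step 5 enriched cells, against 1.85, 2.26 and 2.54 in step 5 controls. At step 4, Gsta2 was at -0.41, 0.17 and -0.23 in enriched cells, against 1.35, 1.92 and 0.77 in controls, and it was well above background on 1 of 3 step 4 enriched arrays. Enriched arrays were below controls at both steps, 3.54-fold at step 5 (log2 difference -1.82, SE 0.30, adjusted p = 0.001223) and by a size that is uncertain at step 4, where the difference of -1.50 (adjusted p = 0.005187) ranged from -4.49 to -1.22 over the alternatives. Gsta4, whose enzyme clears the lipid peroxidation product hydroxynonenal, was at -1.05, -1.12 and -1.11 in step 5 enriched cells, against -0.40, -0.26 and -0.20 in step 5 controls. At step 4, Gsta4 was at -1.07, -1.70 and -2.11 in enriched cells, against -0.25, -0.14 and -0.14 in controls. It too was below controls on every enriched array, 1.75-fold at step 5 (log2 difference -0.81, SE 0.21, adjusted p = 0.01125) and 2.74-fold at step 4 (log2 difference -1.45, SE 0.21, adjusted p = 0.0009843). Between step 5 and step 4 enriched cells Gsta4 differed by 0.53 with adjusted p = 0.1671, and passed without step 4 enriched replicate 1 (0.01428). Gsta1, a close relative of Gsta2, differed by -0.96 at step 5 and -0.65 at step 4 (adjusted p = 0.08661 and 0.2587), and both passed with the slide as a block (adjusted p = 0.00747 and 0.04578), the first also without step 4 control replicate 2 (0.04797). It too was well above background on 1 of 3 step 4 enriched arrays, and its step 4 difference ranged from -2.29 to -0.24 over the alternatives. The probes of Gsta1 and Gsta2 overlap by 50 bases of which 46 are equal, or 92%, and how far their signals are separate was not tested.

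Gsta3 was at 1.57, 0.62 and -0.48 in step 5 enriched cells, against 0.57, -0.03 and 0.14 in step 5 controls. At step 4, Gsta3 was at -1.23, -1.68 and -1.75 in enriched cells, against 0.19, -0.60 and -0.41 in controls. The step 4 enriched arrays were the lowest, 2.42-fold below step 4 controls (log2 difference -1.28, SE 0.43, adjusted p = 0.045), and step 5 enriched cells were 4.35-fold above them (log2 difference 2.12, SE 0.43, adjusted p = 0.01901). Both calls depended on single arrays: the first was lost without any 1 of the 6 arrays of step 4, of step 5 enriched replicate 2 or of step 5 control replicates 1 or 3 (adjusted p of 0.0509 to 0.1398), and the second without step 5 enriched replicate 2 or step 4 enriched replicates 2 or 3 (0.0561 to 0.07741).

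The remaining classes held the transferase with the largest fall at step 4, and further rises. Gstt2, a theta transferase, was at -2.47, -1.15 and -1.55 in step 5 enriched cells, against -1.19, 1.06 and -0.96 in step 5 controls. At step 4, Gstt2 was at -2.37, -1.95 and -2.22 in enriched cells, against -0.38, 1.06 and 0.07 in controls. It fell 5.37-fold at step 4 without overlap (log2 difference -2.43, SE 0.58, adjusted p = 0.01109), and at step 5, where step 5 control replicate 2 stood far above the other controls, the difference of -1.36 (adjusted p = 0.08645) passed with the slide as a block (adjusted p = 0.009393) and without step 5 control replicate 1 (0.04775). Gstt1, its relative, was at 2.46, 1.41 and 1.58 in step 5 enriched cells, against 0.25, -0.34 and 0.40 in step 5 controls. At step 4, Gstt1 was at 1.75, 1.19 and 1.14 in enriched cells, against 0.69, -0.03 and 0.68 in controls. Enriched arrays were above controls at both steps, 3.27-fold at step 5 (log2 difference 1.71, SE 0.32, adjusted p = 0.002177), and at step 4 the difference of 0.91 (adjusted p = 0.05139) passed with the slide as a block (adjusted p = 0.007895), without step 5 enriched replicate 1 (0.02814) and without step 5 control replicate 2 (0.04069).

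Gstk1, the kappa transferase of mitochondria and peroxisomes, was at 1.03, 1.38 and 1.43 in step 5 enriched cells, against -0.08, -0.29 and 0.31 in step 5 controls. At step 4, Gstk1 was at 0.39, 0.50 and 0.62 in enriched cells, against -0.10, -0.26 and 0.23 in controls. It rose with enrichment at step 5 (log2 difference 1.30, SE 0.18, adjusted p = 0.0005019) and at step 4 (0.54 with adjusted p = 0.04432), and between the steps in enriched cells (0.78 with adjusted p = 0.03323), with no overlap in any of the 3. The step 4 call was lost without any 1 of the step 4 arrays except step 4 control replicate 3, or of step 5 enriched replicates 2 or 3 or step 5 control replicate 1 (adjusted p of 0.05302 to 0.1541), and the call between the steps without any 1 of the enriched arrays except step 5 enriched replicate 1 (0.05987 to 0.1183). Gstz1, which isomerises maleylacetoacetate in tyrosine breakdown, rose at step 5 (0.50 with adjusted p = 0.02674), a call lost without any 1 of step 5 enriched replicates 1 or 3 or step 5 control replicates 1 or 2 (up to 0.09693). The omega transferases Gsto1 and Gsto2 and the theta transferase Gstt3 passed in no comparison. Without step 5 enriched replicate 1, Gsto2 passed at step 5 (adjusted p = 0.01571), at step 4 (0.03554) and between the steps in enriched cells (0.004244), and without step 4 enriched replicate 1, Gsto1 passed at step 4 (0.04399).

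The membrane-bound transferases include Mgst1, the enzyme with the highest mean ratio to mESC measured here. Its mESC signal was well above background on all 12 arrays. This enzyme, which protects membranes of the endoplasmic reticulum and mitochondria, was at 4.37, 4.11 and 4.47 in step 5 enriched cells, against 2.66, 1.73 and 2.87 in step 5 controls. At step 4, Mgst1 was at 3.85, 3.87 and 3.99 in enriched cells, against 2.68, 1.72 and 2.89 in controls. Enriched arrays were above controls at both steps, 3.71-fold at step 5 (log2 difference 1.89, SE 0.33, adjusted p = 0.001501) and 2.78-fold at step 4 (log2 difference 1.47, SE 0.33, adjusted p = 0.008143), and the 2 control arrays of slide 2 were the lowest of all. Mgst2, which can also make leukotrienes, fell at both steps (-1.28 with adjusted p = 0.03144 at step 5 and -1.35 with adjusted p = 0.03213 at step 4). Its step 5 call was lost without any 1 of step 5 enriched replicates 1 or 3 or step 5 control replicate 2 (adjusted p of up to 0.1118), and its step 4 call without any 1 of the step 4 arrays except step 4 control replicate 3 (up to 0.1174). Mgst3 differed by 0.32 at step 5 and 0.15 at step 4 in enriched against control cells and passed in no comparison, except at step 5 without step 5 control replicate 2 (adjusted p = 0.02035).

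In the thioredoxin system the cytosolic pair fell with enrichment. Txn1, the cytosolic thioredoxin, was at -0.53, -0.35 and -0.52 in step 5 enriched cells, against -0.11, 0.20 and -0.01 in step 5 controls. At step 4, Txn1 was at -0.50, -0.32 and -0.46 in enriched cells, against 0.01, 0.26 and 0.04 in controls. Enriched arrays lay below controls at both steps, by similar amounts (-0.49 with adjusted p = 0.007615 at step 5 and -0.53 with adjusted p = 0.007941 at step 4). Txnrd1, the cytosolic reductase and a known Nrf2 target, was at -0.78, -1.07 and -1.34 in step 5 enriched cells, against -0.27, -0.26 and -0.39 in step 5 controls. At step 4, Txnrd1 was at -0.66, -0.94 and -1.14 in enriched cells, against -0.01, -0.10 and -0.53 in controls. Its enriched arrays also lay below the controls of the same step (-0.76 with adjusted p = 0.00841 at step 5 and -0.70 with adjusted p = 0.01667 at step 4). The step 4 call was lost without any 1 of step 4 enriched replicates 2 or 3 or step 4 control replicates 1 or 2 (adjusted p of 0.05178 to 0.06678).

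The mitochondrial reductase Txnrd2 rose at both steps (0.50 with adjusted p = 0.005992 at step 5 and 0.49 with adjusted p = 0.009658 at step 4), and Txnrd3, known from testis, rose at step 4 (0.77 with adjusted p = 0.01411) with a difference of 0.49 with adjusted p = 0.06709 at step 5, which passed without step 5 control replicate 1 (0.04189). The step 4 call of Txnrd3 was lost without any 1 of step 4 enriched replicates 2 or 3 or step 4 control replicate 2 (adjusted p of 0.05322 to 0.05739). Mitochondrial thioredoxin, Txn2, rose at step 5 by its brightest probe (0.42 with adjusted p = 0.01849), a call lost without step 5 enriched replicate 1 (0.06228) or step 5 control replicate 3 (0.06506). A much dimmer second Txn2 probe fell at step 5 (-1.01, adjusted p = 0.01281) and at step 4 (-1.41, adjusted p = 0.003547), so the direction of Txn2 rests on the choice of probe.

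Of the superoxide dismutases, Sod1 fell with enrichment. This copper and zinc enzyme of the cytosol was at -0.17, -0.29 and -0.50 in step 5 enriched cells, against 0.12, -0.02 and -0.03 in step 5 controls. At step 4, Sod1 was at -0.88, -0.56 and -0.74 in enriched cells, against 0.09, 0.01 and -0.03 in controls. Enriched arrays were below controls at both steps, by a small amount at step 5 (-0.34 with adjusted p = 0.04192) and more at step 4 (-0.75 with adjusted p = 0.001578). The step 5 call was lost without any 1 of 9 of the 12 arrays (adjusted p of up to 0.1537 without step 5 enriched replicate 3), and held without step 5 enriched replicate 1 and step 4 enriched replicates 1 and 2. Sod2, the manganese enzyme of mitochondria, was at 0.01, -0.32 and -0.54 in step 5 enriched cells, against -0.22, -0.29 and -0.18 in step 5 controls. At step 4, Sod2 was at -0.78, -0.79 and -0.75 in enriched cells, against -0.36, -0.62 and -0.33 in controls. The step 4 enriched arrays were the lowest, and step 5 enriched arrays stood above them by 0.49 (adjusted p = 0.06581, 0.04996 with the slide as a block and 0.04509 without step 5 enriched replicate 3). Against step 4 controls they differed by -0.33 with adjusted p = 0.09338, and passed without step 5 enriched replicate 1 (0.04436).

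Sod3, the secreted dismutase, had mESC signal well above background on 7 of 12 arrays, so its ratio to mESC is less certain, with means of 3.32 ± 0.14 in step 5 enriched cells, 3.01 ± 0.99 in step 5 controls, 2.00 ± 0.51 in step 4 enriched cells and 1.48 ± 0.53 in step 4 controls (SD, n = 3 each). Step 5 arrays did not overlap with step 4 arrays of the same kind (1.32 with adjusted p = 0.1179 in enriched and 1.53 with adjusted p = 0.3256 in control cells), and neither difference passed, but without step 5 control replicate 2 both did (adjusted p = 0.02738 in enriched and 0.01597 in control cells). Catalase (Cat), which breaks down hydrogen peroxide in peroxisomes, was at 0.33, 1.01 and 0.74 in step 5 enriched cells, against 1.09, 1.07 and 1.12 in step 5 controls. At step 4, Cat was at 0.15, 0.37 and 0.37 in enriched cells, against 0.48, 0.55 and 0.68 in controls. Every enriched array was below every control array of its step, and no test passed (-0.41 with adjusted p = 0.06077 at step 5 and -0.28 with adjusted p = 0.2058 at step 4), except at step 5 with the slide as a block (adjusted p = 0.03345) or without step 5 enriched replicate 2 (0.0141). Between step 5 and step 4 enriched cells Cat differed by 0.40 with adjusted p = 0.1691, and passed without step 5 enriched replicate 1 (0.03449); a dimmer Cat probe gave 0.10 in enriched against control cells at step 5 (adjusted p = 0.7121).

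Nqo1, the quinone reductase often used as a readout of Nrf2, had the largest fall with enrichment at step 4. It was at -0.02, 0.44 and -0.49 in step 5 enriched cells, against 0.84, 2.06 and 0.63 in step 5 controls. At step 4, Nqo1 was at -0.90, -0.84 and -1.22 in enriched cells, against 1.60, 1.83 and 1.24 in controls. Enriched arrays were below controls at both steps, 5.81-fold at step 4 (log2 difference -2.54, SE 0.36, adjusted p = 0.0008631) and 2.29-fold at step 5 (log2 difference -1.20, SE 0.36, adjusted p = 0.02158). The step 5 call of Nqo1 was lost without step 5 enriched replicate 1 or 3 or step 5 control replicate 2 (adjusted p of 0.05132 to 0.08392). In step 5 enriched cells it was above step 4 enriched cells by 0.96, which passed with the slide as a block (adjusted p = 0.02377, against 0.1455 without it) and without step 5 control replicate 2 (0.03824). Hmox1, the inducible heme oxygenase, was at 2.94, 1.07 and 0.12 in step 5 enriched cells, against 0.74, 0.65 and 0.52 in step 5 controls. At step 4, Hmox1 was at 1.28, 0.06 and -0.04 in enriched cells, against 0.93, 0.70 and 0.59 in controls. Its enriched arrays scattered, with the array of slide 1 highest at each step, and the groups overlapped in all comparisons, as they did for the constitutive Hmox2, and neither gene passed in any.

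The regulators and partners of these enzymes were counted from lists of 54 further genes, all of them tested. In enriched against control cells 16 rose and 7 fell at step 5, where 20.3% and 20.2% of all genes did, and 8 rose and 8 fell at step 4, where 15% and 16.2% did. In step 5 enriched against step 4 enriched cells 7 rose and 1 fell, beside 3.96% and 2.47% of all genes. Nfe2l2 and Keap1, the factor and the adaptor that holds it back, passed in no comparison, and Nfe2l2 stood at 0.55, 0.06 and -0.44 in step 5 enriched cells, against -0.11, 0.56 and 0.04 in step 5 controls. At step 4, Nfe2l2 was at 0.06, -1.16 and -1.61 in enriched cells, against -0.33, 0.45 and -0.25 in controls. Bach2, a repressor that binds the same DNA element, rose with enrichment at both steps (1.69 with adjusted p = 0.001269 at step 5 and 1.32 with adjusted p = 0.006869 at step 4), as did Ggt7 of the gamma-glutamyltransferase family (1.68 with adjusted p = 0.001593 and 1.30 with adjusted p = 0.008593).

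Sulfiredoxin (Srxn1), which repairs overoxidised peroxiredoxins, and ferritin heavy chain (Fth1), which stores iron, rose where Prdx6 did. Srxn1 was at 1.64, 0.88 and 1.18 in step 5 enriched cells, against 0.14, -0.63 and -0.31 in step 5 controls. At step 4, Srxn1 was at 0.29, -0.77 and -0.52 in enriched cells, against 0.26, -1.05 and -1.09 in controls. The step 5 enriched arrays of Srxn1 were above all other arrays. Fth1 was at 3.38, 1.90 and 2.07 in step 5 enriched cells, against 0.44, 0.34 and 0.76 in step 5 controls. At step 4, Fth1 was at 0.57, 0.06 and -0.24 in enriched cells, against 0.28, 0.77 and 0.03 in controls. In step 5 enriched cells both were above step 5 controls (1.50 with adjusted p = 0.01297 and 1.94 with adjusted p = 0.002432) and above step 4 enriched cells (1.57 with adjusted p = 0.04451 and 2.32 with adjusted p = 0.007353). Malic enzyme (Me1), a source of NADPH, rose between the steps in enriched cells (1.45 with adjusted p = 0.01274), as did Nfe2l3 (0.88 with adjusted p = 0.01466). Nfe2l3 was well above background on 3 of 3 step 5 enriched and 2 of 3 step 4 enriched arrays. Among controls it was so on 1 of 3 arrays at each step. It entered the test only through the group where it was high, so its call and the size of its rise are uncertain.

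By contrast, biliverdin reductase B (Blvrb) and gamma-glutamylcyclotransferase (Ggct), which degrades glutamyl peptides, fell with enrichment at step 4 (-1.58 with adjusted p = 0.0005375 and -1.31 with adjusted p = 0.01508). Of the 5 genes for making selenoproteins, to which Gpx1 to Gpx4 and the thioredoxin reductases belong, 4 fell at step 5 and 3 at step 4, beside 20.2% and 16.2% of all genes, and 0 rose. Sephs2, which makes the selenium donor, differed by -0.72 with adjusted p = 0.00499 at step 5 and -0.80 with adjusted p = 0.00458 at step 4. Slc7a11, the cystine carrier that feeds glutathione synthesis, rose at step 5 by 0.70 with adjusted p = 0.04936, on 2 of 3 slides, and at step 4 its difference was 0.61 with adjusted p = 0.09089. Slc7a11 was well above background on 1 of 3 control arrays at each step and entered the test only through the enriched groups. The step 5 call and the size of these differences are therefore uncertain. Nfe2l2, Keap1, Sephs2 and Slc7a11 were picked out after their values had been seen.

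The antioxidant response element, through which Nrf2 and Bach factors act, was looked for in promoters because the enzymes above moved in both directions. Its core, TGACNNNGC, was searched on both strands of the RefSeq windows of GRCm38.p6 that run from 250 bases before to 50 bases after a gene's start. The search used 1 motif, and whether other motifs overlap it was not examined. Of the enzymes 47 matched the promoter table by symbol, and 8 of the 47 held the core, or 17%, against 14% of all 27025 genes. Counted by window, 8 of 63 enzyme windows held it, or 12.7%, against 12.4% of all 32851 windows. Prdx6, Sod3, Gstt2, Gsr, Gclc, Hmox1 and Gsta4 had no entry there, so their promoters were not searched. The core is shown in capitals for a pair that fell with enrichment at both steps, Prdx1 and Txnrd1, for Gclm, which fell at step 4, and for 3 that rose at both steps, Mgst1, Gstm5 and Gstm7, each read along the gene's own strand.

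Prdx1, chr4:116685446-116685494, plus strand: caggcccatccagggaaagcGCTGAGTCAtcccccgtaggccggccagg
Txnrd1, chr10:82859094-82859142, plus strand: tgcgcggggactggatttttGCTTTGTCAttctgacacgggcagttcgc
Gclm, chr3:122245403-122245451, plus strand: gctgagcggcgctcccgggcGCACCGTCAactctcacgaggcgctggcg
Mgst1, chr6:138140451-138140499, plus strand: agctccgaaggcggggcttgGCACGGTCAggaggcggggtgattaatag
Gstm5, chr3:107895792-107895840, plus strand: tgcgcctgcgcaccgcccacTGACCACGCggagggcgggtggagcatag
Gstm7, chr3:107931715-107931763, minus strand: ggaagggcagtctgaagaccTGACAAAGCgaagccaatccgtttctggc

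In Prdx1, Txnrd1, Gclm and Mgst1 the core lies on the strand opposite to the gene, and in Gstm5 and Gstm7 on the gene's own. Sod1, which fell with enrichment at both steps, and Gsta3, which fell at the earlier step only, also held it and are not shown. Enzymes on both sides of the enrichment effect thus carried the core, which is a description of the windows and not of binding.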

How the data were processed

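RNA of 12 samples was hybridised to 2-colour arrays, Cy5 for the sample and Cy3 for a common mESC reference, from 100 ng RNA each per the labels' protocols. Spots were read with Agilent Feature Extraction, which gave each spot's mean and local background intensity per channel and the log10 ratio of its processed signals, per the file headers. The deposited value table holds log2 ratios, which equalled the scanner's log10 ratio turned to log2 within 0.001 for 99.4% to 99.5% of probes per array. Which steps lay between the 2 is not given in the sources used here.

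From the intensity values, background correction used normexp (offset 50), and the log2 ratio was normalised within each array by loess (R 4.3.3, limma 3.58.1). Control spots and outliers had weight 0 in loess, and saturated spots were kept. Spots of a probe were averaged, and the brightest probe stood for a gene, 18 of the 54 enzymes having several. Genes entered the test where some group had all 3 of its arrays well above background in Cy5. Group means were fitted over the 12 arrays, and p-values moderated by limma's empirical Bayes step were adjusted by the Benjamini-Hochberg method over 22315 genes, with a threshold of 0.05; every adjusted p in the text is from limma. The step effects and the enrichment effects share arrays.

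Replicate numbers are the slides, and the labels call the replicates biological. Deviations from the group means correlated between same-numbered arrays in every pair (r of 0.13 to 0.75 over the 4 comparisons), so the slide was added as a block, and its value stands where it changes a call. Slide 2 was read on another day with another software version, and its older gene names were replaced by those of the same probes on the other slides.

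The enzymes and all gene lists were chosen with earlier results of these data known. Per-array values are given for up to 10 called enzymes with the largest difference in each comparison and the same sign on all 3 slides, and for 16 enzymes whatever their values; other pathway genes are, with exceptions named in the text, the up to 4 with the largest called difference in a comparison. Markers of endoderm, mesenchyme, endothelium, erythroid cells and macrophages were also counted: 1 of 8 endodermal markers was lower in enriched cells at step 5, 0 of 8 mesenchymal markers changed at step 5 and 1 of 8 at step 4, 1 of 7 endothelial markers was lower at step 5 and 2 of 7 at step 4, 2 of 4 erythroid markers were lower at each step, and 0 of 4 macrophage markers changed. Of all genes 20.3% were higher and 20.2% lower at step 5, and 15% higher and 16.2% lower at step 4. Alternatives covered the background correction, the normalisation, the filter, the probe rule, the block, the groups in the fit, a 2-fold rule, slide 2 and each array left out.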

Additional observations from a re-analysis of the deposited data

Results flagged for a closer look

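Between step 5 and step 4, 7 enzymes moved one way on every slide in enriched cells and the opposite way on every slide in control cells. The difference of the 2 step effects was 0.92 for Gclm (adjusted p = 0.4358), 0.64 for Gsta4 (0.7125), 0.80 for Gstt1 (0.7936), 0.35 for Gstz1 (0.8339), 1.04 for Hmox1 (0.9102), 0.44 for Prdx1 (0.8279) and -0.51 for Prdx4 (0.6971), and limma called none of them. Prdx6 was higher in enriched than in control cells on every slide at step 5 and lower on every slide at step 4, a difference of 2.54 between the 2 effects (adjusted p = 0.08477), which did not pass either.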

How the results depend on the processing

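Of 66 called results 35 kept their call and direction under all 23 alternatives, and of 194 uncalled ones 162 stayed uncalled. A 2-fold rule left 14 enzymes at step 5, 15 at step 4 and 5 between the enriched groups, beside 17.4%, 11.4% and 2.88% of all genes. Leaving out 1 array gave 23 to 29 enzymes at step 5, 22 to 31 at step 4, 5 to 11 between step 5 and step 4 enriched cells, 0 to 4 between step 5 and step 4 controls and 0 to 1 for the difference of enrichment effects. In the first 3 of these comparisons 30.7% to 41.1%, 19.5% to 34.6% and 1.99% to 7.91% of all genes passed. Without slide 2 the counts were 20 at step 5, 19 at step 4 and 1 between the enriched groups, with fewer arrays in each fit. Of all genes 25.9%, 13.5% and 1.39% passed there. Without both control arrays of slide 2, chosen after seeing the data, 3 enzymes differed between step 5 and step 4 controls. Among all genes 155 were higher and 29 lower there. With the mean of all probes of a gene 1 enzyme, Prdx6, passed for the difference of enrichment effects (2.08, adjusted p = 0.04614). Among all genes 7 were higher and 1 lower in that test. The mean of all probes turned Gstm3 to 0.08 at step 5 and to 0.82 between the enriched groups, where it passed (adjusted p = 0.01366), and Txn2 to -0.20 at step 5, as their probes disagree. Prdx6 at step 4 passed with that mean (0.01615), with median centring (0.0467) and with only the step 4 groups in the fit (0.0275). The replicate block gave 34 enzymes at step 5, 30 at step 4 and 12 between the enriched groups, beside 46.9%, 39.3% and 11% of all genes. It gave 0 enzymes in the other 2 comparisons and changed no other call than the 10 gained ones given above. Aquantile leaves log ratios unchanged by construction, and a fit of only the groups compared gave no value for the difference of effects. With 3 arrays a group, and with Gsta1, Gsta2, Gpx6, Slc7a11 and Nfe2l3 near background on some arrays, small differences were not detectable.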
